A study of Mus musculus with 4 samples.

Results

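The genes described here are 10 of the 32285 genes counted in single leukocytes of healthy mouse liver. They are genes of MHC class I antigen presentation together with Cd1d1, listed by name with earlier results of these data known. They comprise the classical heavy chains H2-K1 and H2-D1, the further heavy chain H2-Q4, the light chain B2m, the peptide transporter genes Tap1 and Tap2, the loading factor Tapbp, the immunoproteasome subunits Psmb8 and Psmb9, and Cd1d1. Cells were CD45+ leukocytes of PA-GFP C57BL/6 mice, which carry a green fluorescent protein that light switches on, and photoactivation was applied in every sample. Of the 4 libraries, 2 hold cells of the periportal zone, near the portal vein (PV), and 2 hold cells of the pericentral zone, near the central vein (CV). The labels give neither the age, the sex nor the number of mice, and do not tell whether replicates are different animals. The p-values therefore cover only how these libraries vary, and that variation may be technical.

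MHC class I molecules show peptides from inside the cell to CD8 T cells. The proteasome cuts proteins into peptides, the TAP transporter carries them into the endoplasmic reticulum, and tapasin (encoded by Tapbp) helps load them onto a heavy chain paired with beta-2 microglobulin (B2m). CD1d, the product of Cd1d1, also pairs with beta-2 microglobulin, but it presents lipids, and natural killer T cells, which are abundant in mouse liver, recognise it.

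On the GRCm38 build, 8 of the 10 genes lie in the MHC region of chromosome 17. In the GENCODE vM21 annotation these are Tapbp (chr17:33915899-33929292), H2-K1 (chr17:33996017-34000347), Psmb9 (chr17:34181987-34187764), Tap1 (chr17:34187553-34197225), Psmb8 (chr17:34197721-34201454), Tap2 (chr17:34203527-34216321), H2-D1 (chr17:35262730-35267499) and H2-Q4 (chr17:35379617-35385290). H2-K1 and Psmb9 lie on the minus strand and the other MHC genes on the plus strand. B2m (chr2:122147686-122153083, plus strand) and Cd1d1 (chr3:86995834-86999441, minus strand) lie outside the MHC region. Psmb9 and Tap1 are divergent genes whose annotated 5′ ends overlap, while this assay reads molecules near the 3′ end.

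RefSeq promoter windows of GRCm38.p6, from 250 bases before to 50 bases after the start site, were matched for 8 of the 10 genes, leaving out Tap2 and Cd1d1. Shown are the 250 bases before the start site for H2-K1 and H2-D1, whose levels parted in neutrophils, for B2m, and for Tap1, whose 250 bases all lie in the window of the divergent gene Psmb9. Capitals mark the matches to the motifs searched, and each sequence is read 5′ to 3′ on the strand of its gene.
H2-K1: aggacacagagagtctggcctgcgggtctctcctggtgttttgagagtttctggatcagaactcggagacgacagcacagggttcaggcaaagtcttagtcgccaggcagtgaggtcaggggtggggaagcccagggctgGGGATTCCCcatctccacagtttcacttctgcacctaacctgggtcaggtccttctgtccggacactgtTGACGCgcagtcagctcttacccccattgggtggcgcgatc
H2-D1: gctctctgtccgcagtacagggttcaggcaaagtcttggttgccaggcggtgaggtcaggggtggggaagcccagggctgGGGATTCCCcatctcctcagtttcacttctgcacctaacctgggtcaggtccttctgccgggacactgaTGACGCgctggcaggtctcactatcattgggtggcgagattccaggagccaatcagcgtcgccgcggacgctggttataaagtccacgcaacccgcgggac
B2m: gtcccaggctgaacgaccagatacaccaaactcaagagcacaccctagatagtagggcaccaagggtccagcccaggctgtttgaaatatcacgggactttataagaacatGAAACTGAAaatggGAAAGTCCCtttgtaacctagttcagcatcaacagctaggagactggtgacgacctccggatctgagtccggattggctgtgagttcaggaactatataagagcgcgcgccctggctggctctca
Tap1: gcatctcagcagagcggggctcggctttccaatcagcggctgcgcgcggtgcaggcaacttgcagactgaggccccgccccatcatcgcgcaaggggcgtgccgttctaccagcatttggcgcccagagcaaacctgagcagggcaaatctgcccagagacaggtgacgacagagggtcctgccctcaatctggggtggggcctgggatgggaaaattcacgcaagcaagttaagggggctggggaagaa
These stretches are chr17:34000348-34000597 (minus strand) for H2-K1, chr17:35262844-35263093 (plus strand, within the GENCODE gene record, which starts earlier) for H2-D1, chr2:122147437-122147686 (plus strand) for B2m and chr17:34187306-34187555 (plus strand) for Tap1.

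The motifs searched, on both strands, were the core of the palindromic NF-kappaB site (GGGATTCCC), the core of a further NF-kappaB site (GGGANTTTC), the core of the interferon-stimulated response element (GAAANNGAA) and the X2 box of MHC promoters (TGACGC). The palindromic core occurred in the windows of H2-K1 and H2-D1, at 110 and 170 bases before the start site, and in 0.353% of all 32851 windows. It lay in the longest run that the H2-K1 and H2-D1 stretches share, of 47 bases. The X2 box stood 41 bases before the start site in H2-K1 and 101 bases before it in H2-D1, was found on the minus strand of the H2-Q4 window after the start site, and occurred in 7.40% of windows. Distances in H2-K1 and H2-D1 depend on the start site taken: the bases tataaagtccacgca lie after it in H2-K1 and before it in H2-D1. B2m held the core of the further NF-kappaB site on its minus strand (1.11% of windows) and that of the response element (8.56% of windows), which do not overlap. The windows of Tap1, Psmb9, Psmb8 and Tapbp held none of these letters, and a match is a description of sequence only. Only these exact letters were searched, so a window without a match may still hold a variant of a site.

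After filtering, the libraries held 1593 cells, 333 and 512 in PV and 372 and 376 in CV, with a median of 5369 to 6317.5 UMIs (unique molecular identifiers, 1 per captured molecule) per cell. A UMI of Ptprc, which encodes CD45, was found in 92.0% to 97.6% of the cells of a library. Of 1939 barcodes, 282 occurred in more than 1 library, and each of these was kept only in a library with at least 70% of its UMIs. Cells were assigned to a class when they held at least 3 of its 6 markers, none of which is among the 10 genes. This assigned 1338 cells, set aside 176 with markers of several lineages and left 79 unassigned. The classes compared were Kupffer cells, the resident liver macrophages (4 and 102 cells in PV, 54 and 36 in CV), type 1 conventional dendritic cells (cDC1, 32 and 20 in PV, 12 and 14 in CV), neutrophils (22 and 12 in PV, 37 and 15 in CV), B cells (19 and 45 in PV, 33 and 57 in CV), T cells (176 and 170 in PV, 153 and 146 in CV) and natural killer cells with type 1 innate lymphoid cells (NK/ILC1, 3 and 10 in PV, 17 and 22 in CV). UMIs were summed per class and library where at least 10 cells were present, which leaves out PV replicate 1 for Kupffer and NK/ILC1 cells. Levels are CPM, UMIs of a gene per 1000000 UMIs of the sum, and in a sum fewer cells with a transcript cannot be told apart from less of it per cell. The words highest, lowest and order refer to these 6 classes alone.

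**Figure D1:**
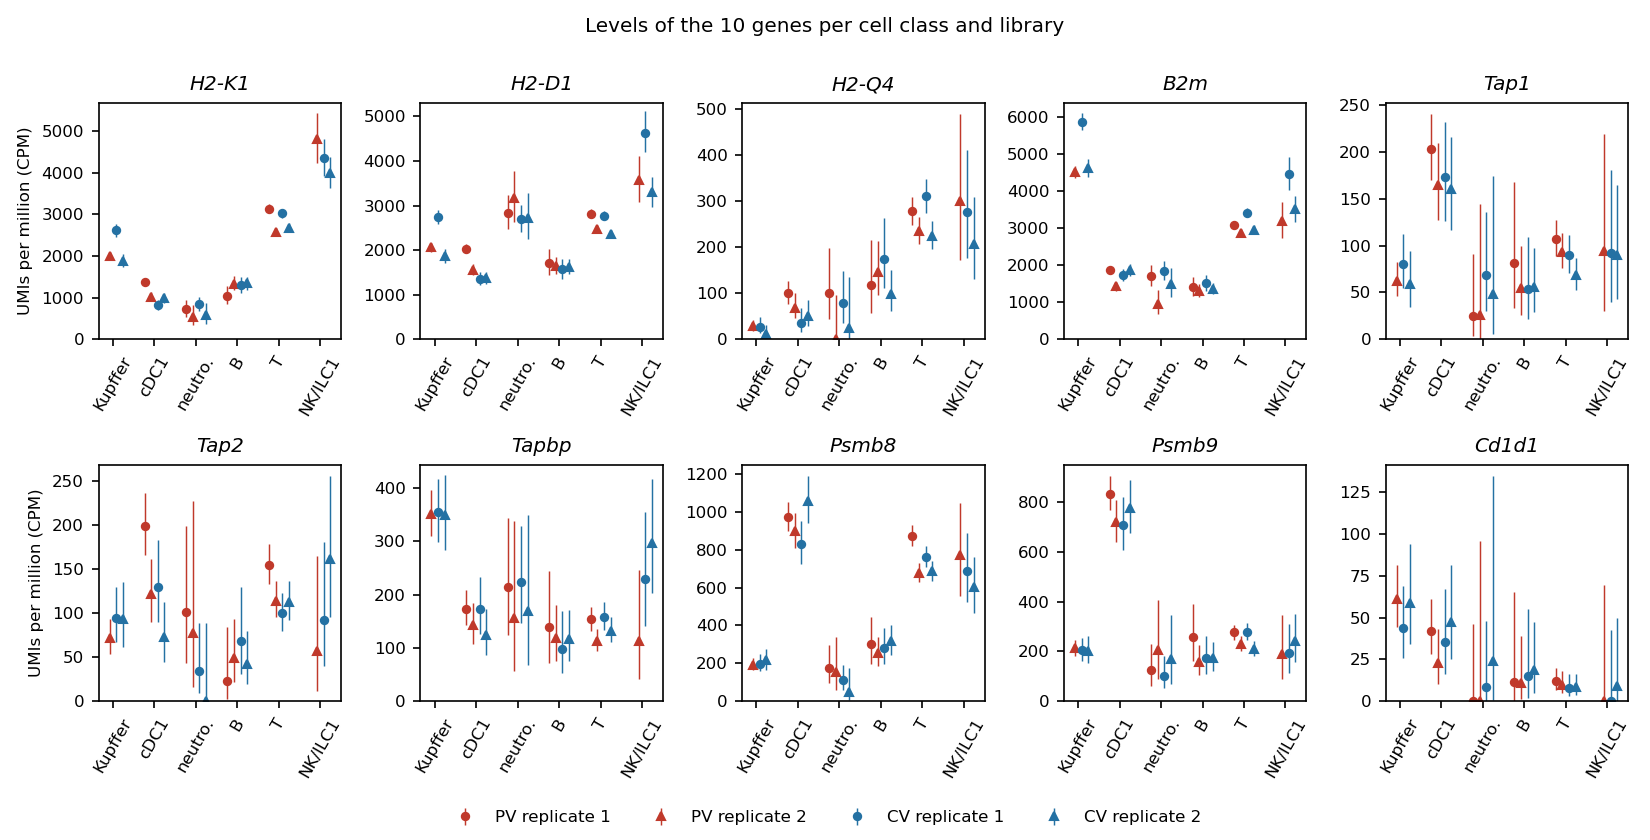
Levels of the 10 genes (y axis, CPM, linear) in each class and library (x axis), with 95% Poisson intervals that cover counting error only; PV libraries are red and CV libraries blue. Psmb9 stood at 709 to 835 CPM in cDC1 and at no more than 279 CPM in the other 5 classes, and H2-K1 at 544 to 836 CPM in neutrophils and 3995 to 4798 CPM in NK/ILC1 cells.

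The first comparison asked how the genes differ between leukocyte classes. Each class was set against the mean of the other 5 with edgeR's quasi-likelihood test on 5525 genes, with the library as a block, and a gene was called at an adjusted p under 0.05. In cDC1, 5 of the 10 genes were higher and 3 lower, where 46.4% of all genes were called, 32.0% higher and 14.4% lower. In T cells 5 were higher and 1 lower (45.4% of all genes, 33.9% higher and 11.5% lower). In NK/ILC1 cells 5 were higher and 0 lower (18.9% of all genes, 14.5% higher and 4.38% lower). Kupffer cells had 3 higher and 2 lower (48.3% of all genes, 34.4% higher and 13.9% lower). B cells had 1 higher and 5 lower (33.4% of all genes, 23.7% higher and 9.70% lower). Neutrophils had 0 higher and 6 lower (54.2% of all genes, 20.3% higher and 33.9% lower). The median log2 fold change of the 10 genes was 0.41 in cDC1, where that of all genes was 0.16, and -1.0 in neutrophils, where that of all genes was -0.79. Since many genes of all kinds differ between classes, the counts carry less than which of the 10 genes were high or low in which class. Scaling by library totals moved the median of all genes by -0.26 in cDC1 and 0.27 in NK/ILC1 cells, and the share of higher calls among all genes from 68.9% to 53.3% in cDC1 and from 76.8% to 87.8% in NK/ILC1 cells. No called member changed sign under another scaling. Pairs of classes were also compared, for the order of levels. Among all genes, Kupffer cells differed from cDC1 in 50.1%, from neutrophils in 55.3%, from B cells in 51.5%, from T cells in 62.8% and from NK/ILC1 cells in 41.2%. cDC1 differed from neutrophils in 58.2%, from B cells in 40.7%, from T cells in 47.2% and from NK/ILC1 cells in 31.6%. Neutrophils differed from B cells in 52.1%, from T cells in 60.2% and from NK/ILC1 cells in 47.4%. B cells differed from T cells in 30.9% and from NK/ILC1 cells in 22.2%, and T cells from NK/ILC1 cells in 7.02%, where 0 of the 10 members were called.

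**Figure D2:**
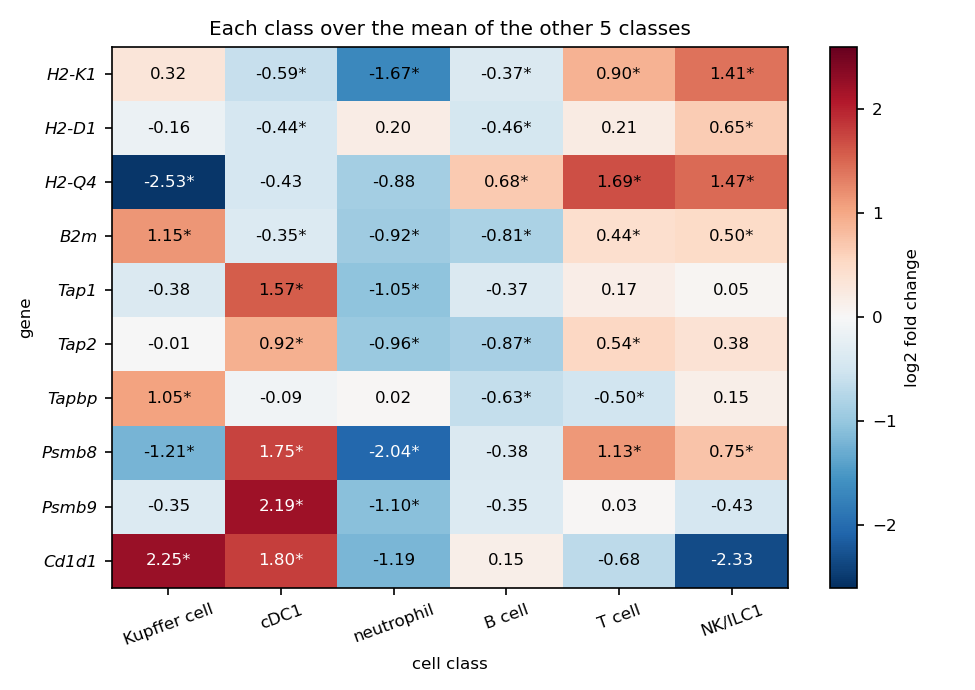
Log2 fold change of each gene (rows) in each class (columns) over the mean of the other 5 classes, printed in each cell and coloured from blue (lower) to red (higher); a star marks an edgeR adjusted p under 0.05. The cDC1 column is red for Psmb8, Psmb9, Tap1, Tap2 and Cd1d1 and blue for H2-K1, H2-D1 and B2m, and in the neutrophil column H2-K1 is at -1.67 and H2-D1 at 0.20.

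The classical heavy chain H2-K1 was highest in NK/ILC1 and T cells. NK/ILC1 cells had 4798 CPM in PV replicate 2, against 4350.2 and 3995 CPM in CV sums. T cells had 3137 and 2573 CPM in PV sums, against 3021 and 2678 CPM in CV sums. Neutrophils had the least, 718 and 544 CPM in PV sums, against 836 and 579.7 CPM in CV sums, and the only sum of another class in their range was the 819 CPM of cDC1 in CV replicate 1. H2-K1 was higher in NK/ILC1 cells by 1.41 ± 0.14 (log2 fold change ± SE, edgeR adjusted p = 4.7e-10) and in T cells by 0.90 ± 0.13 (1.6e-07). Its level was lower in neutrophils, at -1.67 ± 0.17 (edgeR adjusted p = 1.2e-10), in cDC1, at -0.59 ± 0.14 (7.8e-04), and in B cells, at -0.37 ± 0.14 (0.045). The B cell value was -0.22 without PV replicate 1 and -0.31 without CV replicate 1, and neither passed (edgeR adjusted p = 0.21 and 0.12). That call was also lost with no library block (-0.38, edgeR adjusted p = 0.051), with the monocyte panel not counted against T and NK/ILC1 cells (-0.36, 0.066) and with a gate of 4 markers (-0.078, 0.77), and the value changed sign with a gate of 2 (0.082, 0.85). With a gate of 4 markers the cDC1 value was -0.26 and did not pass (edgeR adjusted p = 0.16). In the order of mean levels, NK/ILC1 and T cells did not differ past the test (0.42 ± 0.19, edgeR adjusted p = 0.22), T cells stood above Kupffer cells (0.49 ± 0.19, 0.022), Kupffer cells above B cells (0.57 ± 0.19, 0.011), B cells and cDC1 did not differ past the test (0.19 ± 0.18, 0.43), and cDC1 stood above neutrophils (0.90 ± 0.20, 2.0e-04).

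H2-D1, the other classical heavy chain, was not called in neutrophils (0.20 ± 0.12, edgeR adjusted p = 0.16). They had 2834 and 3160.1 CPM in PV sums, against 2688 and 2729 CPM in CV sums. T cells had 2815 and 2466 CPM in PV sums, against 2775 and 2358 CPM in CV sums, which overlaps the neutrophil range. Between neutrophils and T cells the difference in H2-D1 was -0.01 ± 0.15 (edgeR adjusted p = 0.99), and in H2-K1 it was -2.14 ± 0.20 (4.1e-12). H2-D1 was higher in NK/ILC1 cells, at 3575 CPM in PV replicate 2, against 4637 and 3295 CPM in CV sums (0.65 ± 0.13, edgeR adjusted p = 1.6e-04). B cells were lower, at 1716 and 1645 CPM in PV sums, against 1566 and 1628 CPM in CV sums (-0.46 ± 0.12, edgeR adjusted p = 0.0026). It was also lower in cDC1 (-0.44 ± 0.12, edgeR adjusted p = 0.0025), a call that did not hold without CV replicate 1 (-0.27, 0.11), with no low-count filter (-0.31, 0.081), with shared barcodes kept (-0.17, 0.22) or with a gate of 4 markers (-0.27, 0.079). The B cell call did not hold with a gate of 2 markers (-0.21, edgeR adjusted p = 0.40). In T cells H2-D1 had 0.21 ± 0.11 (edgeR adjusted p = 0.13), and 0.34 without PV replicate 1 (0.011). No neighbours in the order of mean levels, which runs through NK/ILC1 cells, neutrophils, T cells, Kupffer cells, B cells and cDC1, differed past the test.

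The ratio of H2-K1 to H2-D1 UMIs within a sum is free of library scaling, and it was chosen after the values were seen. It was 0.253 and 0.172 in PV neutrophils and 0.311 and 0.212 in CV neutrophils, with 57 and 21 H2-K1 UMIs in PV and 97 and 24 in CV. In cDC1 it was 0.665 ± 0.047 (SD, n = 4 libraries), in B cells 0.766 ± 0.107 (SD, n = 4) and in Kupffer cells 0.976 ± 0.028 (SD, n = 3). T cells had 1.10 ± 0.04 (SD, n = 4) and NK/ILC1 cells 1.16 ± 0.21 (SD, n = 3). Every neutrophil ratio lay below every ratio of the other 5 classes, of which the lowest was 0.605 in B cells of PV replicate 1. In neutrophil sums the 6 Kupffer cell markers totalled 151 to 411 CPM, against 15769 to 18000 CPM in Kupffer sums. Of their UMIs in neutrophil sums, 49 were of Slc40a1, 4 of Clec4f, 2 of Vsig4, 1 of Timd4, 1 of Cd5l and 0 of Marco. The part of these markers in the result was not tested. Of the 90-base words in the last 500 bases of H2-K1 and of H2-D1, 0% occur in transcripts of other genes.

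H2-Q4, a heavy chain of the Q region, was also highest in T and NK/ILC1 cells. T cells had 278 and 235 CPM in PV sums, against 310.2 and 225 CPM in CV sums. NK/ILC1 cells had 301 CPM in PV replicate 2, against 275 and 206 CPM in CV sums. Neutrophils had 101 and 0 CPM in PV sums, against 77.5 and 24.2 CPM in CV sums, from 8 and 0 UMIs in PV and 9 and 1 in CV. Kupffer cells had the lowest mean, at 27.8 CPM in PV replicate 2, against 26.7 and 10.4 CPM in CV sums, from 21, 11 and 3 UMIs. H2-Q4 was higher in T cells by 1.69 ± 0.17 (edgeR adjusted p = 4.9e-11), in NK/ILC1 cells by 1.47 ± 0.29 (1.3e-04) and in B cells by 0.68 ± 0.25 (0.031), and lower in Kupffer cells, at -2.53 ± 0.30 (3.0e-09). The B cell call did not hold without PV replicate 2 (0.61, edgeR adjusted p = 0.13), CV replicate 1 (0.62, 0.094) or CV replicate 2 (0.66, 0.090). It was also lost with scaling by library totals (0.54, edgeR adjusted p = 0.076), no low-count filter (0.63, 0.070), shared barcodes kept (0.62, 0.051), no library block (0.65, 0.059) and neutrophils left out of the fit (0.52, 0.073). In neutrophils H2-Q4 had -0.88 ± 0.38 (edgeR adjusted p = 0.051), and it passed without PV replicate 1 (-1.31, 0.015) and without CV replicate 1 (-1.23, 0.030). Of the 90-base words in its last 500 bases, 9.49% occur in transcripts of other genes, so part of its UMIs are uncertain. Those genes include Reep3 and none of the heavy chains named here. However, words from the last 500 bases of the heavy chain H2-Q6 do occur in H2-Q4 transcripts.

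B2m, the light chain shared by these heavy chains and CD1d, was highest in Kupffer cells among the 6 classes. They had 4512 CPM in PV replicate 2, against 5875 and 4617 CPM in CV sums, above every sum of the other 5 classes. B cells had 1401 and 1303 CPM in PV sums, against 1513 and 1359 CPM in CV sums. B2m was higher in Kupffer cells by 1.15 ± 0.12 (edgeR adjusted p = 2.7e-10), in NK/ILC1 cells by 0.50 ± 0.14 (0.0063) and in T cells by 0.44 ± 0.11 (0.0016). The test found it lower in neutrophils, at -0.92 ± 0.14 (edgeR adjusted p = 4.9e-07), in B cells, at -0.81 ± 0.13 (2.7e-06), and in cDC1, at -0.35 ± 0.12 (0.017). The NK/ILC1 call did not hold without CV replicate 2 (0.49, edgeR adjusted p = 0.075), and that in cDC1 did not hold without PV replicate 1 (-0.16, 0.31), PV replicate 2 (-0.34, 0.052) or CV replicate 1 (-0.23, 0.20). With no low-count filter both calls were lost, at 0.31 in NK/ILC1 cells (edgeR adjusted p = 0.27) and -0.22 in cDC1 (0.26). The cDC1 call was also lost with shared barcodes kept (-0.067, edgeR adjusted p = 0.67), a gate of 2 markers (-0.28, 0.13) and a gate of 4 (-0.20, 0.23). Kupffer cells stood above NK/ILC1 cells, their neighbour in the order (0.54 ± 0.18, edgeR adjusted p = 0.012). Over the summed UMIs of H2-K1 and H2-D1, a ratio chosen after the values were seen, B2m stood at 1.15 ± 0.07 in Kupffer cells (SD, n = 3), and the means of the other 5 classes ran from 0.428 in neutrophils to 0.673 in cDC1.

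Kupffer sums also held UMIs of genes on the hepatocyte list and of the sinusoidal endothelial panel, the latter mostly of Cdh5. Of 8 hepatocyte transcripts, 7 were detected, Mup20 was at 0, and they totalled 565 CPM in PV replicate 2, against 429.9 and 369.7 CPM in CV sums, against 4.48 to 201 CPM in the other 5 classes. The 6 sinusoidal endothelial markers totalled 676 CPM in PV replicate 2, against 519.7 and 767 CPM in CV sums, against 0 to 25.9 CPM in the other 5 classes. Of their UMIs in Kupffer sums, 822 were of Cdh5, 104 of Stab2 and 1 to 8 of each of the other four. The part of these transcripts in the Kupffer values was not tested.

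Among the loading factors and over the 6 classes, Tap1 was highest in cDC1 and Tapbp in Kupffer cells. Tap1, a chain of the peptide transporter, had 203 and 165 CPM in PV cDC1, against 173 and 161 CPM in CV cDC1. These lay above every sum of the other 5 classes, the highest of which was 107 CPM in T cells. Tap1 was higher in cDC1 by 1.57 ± 0.17 (edgeR adjusted p = 3.3e-10), and cDC1 stood above NK/ILC1 cells, next in the order, by 1.27 ± 0.31 (0.0012). Tap1 was lower in neutrophils (-1.05 ± 0.35, edgeR adjusted p = 0.012), on 1 to 8 UMIs a library, and that call did not hold without PV replicate 1 (-0.88, 0.066) or PV replicate 2 (-0.94, 0.058).

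Tap2, the other chain of the transporter, had 199 and 122 CPM in PV cDC1, against 129.9 and 73.1 CPM in CV cDC1. T cells had 154 and 114 CPM in PV sums, against 99.7 and 113 CPM in CV sums, within the range of cDC1. Tap2 was higher in cDC1 by 0.92 ± 0.21 (edgeR adjusted p = 4.9e-04) and in T cells by 0.54 ± 0.19 (0.019), and lower in neutrophils, at -0.96 ± 0.41 (0.048), and in B cells, at -0.87 ± 0.33 (0.036). The T cell call did not hold without PV replicate 2 (0.46, edgeR adjusted p = 0.11), nor the neutrophil call without CV replicate 1 (-0.86, 0.14) or CV replicate 2 (-0.61, 0.23). The B cell call did not hold without PV replicate 1 (-0.53, edgeR adjusted p = 0.29), PV replicate 2 (-0.98, 0.058) or CV replicate 2 (-0.81, 0.099). It was also lost with a gate of 2 markers (-0.23, edgeR adjusted p = 0.80) or 4 (-0.71, 0.087), at most 5% mitochondrial UMIs (-0.79, 0.055), at least 20 cells per sum (-0.75, 0.0503) and no library block (-0.89, 0.053). The neutrophil call was also lost with DESeq2 (-0.85, adjusted p = 0.083), relative log expression size factors (-0.85, 0.083), no library block (-0.84, 0.12) and the monocyte panel not counted against T and NK/ILC1 cells (-0.96, 0.054). The T cell call was also lost with DESeq2 (0.44, adjusted p = 0.075), relative log expression size factors (0.43, 0.062) and neutrophils left out of the fit (0.35, 0.13). No neighbours in the order of its mean levels differed past the test.

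Tapbp, which encodes tapasin, had 351 CPM in PV replicate 2 of Kupffer cells, and 355 and 349 CPM in CV sums. In cDC1 it had 173 and 142 CPM in PV sums, against 173 and 124 CPM in CV sums. Tapbp was higher in Kupffer cells by 1.05 ± 0.16 (edgeR adjusted p = 3.7e-07), whereas in cDC1 the value was -0.09 ± 0.16 (0.72). Tapbp was lower in B cells, at -0.63 ± 0.20 (edgeR adjusted p = 0.014), and in T cells, at -0.50 ± 0.15 (0.0050). The B cell call did not hold without CV replicate 1 (-0.50, edgeR adjusted p = 0.13) or CV replicate 2 (-0.61, 0.069), nor the T cell call without PV replicate 1 (-0.36, 0.072). They were also lost with a gate of 2 markers in B cells (-0.52, edgeR adjusted p = 0.21) and with no low-count filter in T cells (-0.32, 0.19). Kupffer cells stood above NK/ILC1 cells, next in the order, by 0.75 ± 0.25 (edgeR adjusted p = 0.015).

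Psmb9, which encodes the immunoproteasome subunit LMP2, set cDC1 apart from the other 5 classes. It had 835 and 720.4 CPM in PV cDC1, against 709 and 778 CPM in CV cDC1. T cells, next in the order, had 276 and 230.4 CPM in PV sums, against 279 and 209 CPM in CV sums. Psmb9 was higher in cDC1 by 2.19 ± 0.12 (edgeR adjusted p = 3.8e-18), and cDC1 stood above T cells by 1.80 ± 0.15 (6.0e-13). It was lower in neutrophils, which had 103 to 207 CPM (-1.10 ± 0.22, edgeR adjusted p = 7.1e-05). Among T cells, NK/ILC1 cells, Kupffer cells and B cells no neighbours in the order differed past the test, and B cells stood above neutrophils (0.62 ± 0.27, edgeR adjusted p = 0.048). In Kupffer cells Psmb9 had -0.35 ± 0.16 (edgeR adjusted p = 0.065), and it passed without PV replicate 1 (-0.44, 0.022).

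Psmb8, which encodes the immunoproteasome subunit LMP7, was high in T and NK/ILC1 cells as well. It had 973 and 898 CPM in PV cDC1, against 831 and 1059.6 CPM in CV cDC1. T cells had 874 and 679 CPM in PV sums, against 763 and 688 CPM in CV sums, and the 874 CPM lies within the cDC1 range. Neutrophils had 176 and 155 CPM in PV sums, against 112 and 48.3 CPM in CV sums, from 14 and 6 UMIs in PV and 13 and 2 in CV. Psmb8 was higher in cDC1 by 1.75 ± 0.12 (edgeR adjusted p = 5.6e-15), in T cells by 1.13 ± 0.12 (6.3e-10) and in NK/ILC1 cells by 0.75 ± 0.17 (0.0011). The NK/ILC1 call was lost with no low-count filter (0.56, edgeR adjusted p = 0.079) and with neutrophils left out of the fit (0.33, 0.097). It was lower in neutrophils, at -2.04 ± 0.22 (edgeR adjusted p = 4.4e-10), and in Kupffer cells, at -1.21 ± 0.17 (1.1e-07), which had 194 CPM in PV replicate 2, against 199 and 218 CPM in CV sums. In T cells Psmb9 had 0.03 ± 0.13 (edgeR adjusted p = 0.92). In B cells Psmb8 had -0.38 ± 0.16 (edgeR adjusted p = 0.063), and it passed without CV replicate 2 (-0.51, 0.046).

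Immunoproteasome subunits take the places of constitutive ones in the catalytic core, Psmb8 that of Psmb5 and Psmb9 that of Psmb6. A further immunoproteasome subunit, Psmb10, which was called higher in Kupffer cells, is left out of the ratio given here. The ratio of summed Psmb8 and Psmb9 UMIs to summed Psmb5 and Psmb6 UMIs was 5.56 and 5.36 in PV cDC1 and 5.21 and 5.85 in CV cDC1. In T cells it was 4.27 and 3.49 in PV and 4.25 and 3.14 in CV, below every cDC1 ratio. It was 2.50 ± 0.63 in NK/ILC1 cells (SD, n = 3), 2.10 ± 0.33 in B cells (SD, n = 4) and 1.92 ± 0.09 in Kupffer cells (SD, n = 3). Neutrophils had 6 and 7 in PV and 1.39 and 1.80 in CV, on 4 and 2 constitutive UMIs in PV and 18 and 5 in CV, too few to place the class.

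**Figure D3:**
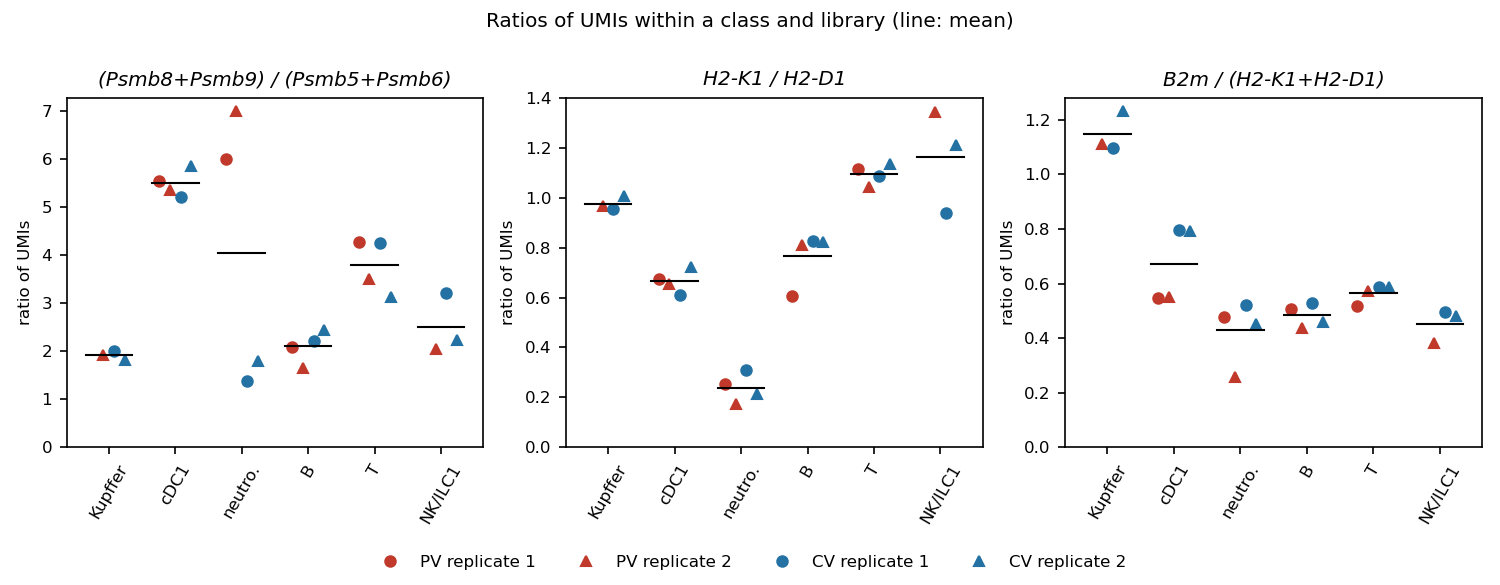
Ratios of UMIs (y axis) within each class and library for immunoproteasome over constitutive subunits, H2-K1 over H2-D1, and B2m over the summed heavy chains; red points are PV, blue points CV, and a line is the mean of a class. cDC1 lie at 5.21 to 5.85 in the first panel, neutrophils at 0.172 to 0.311 in the second and Kupffer cells at 1.10 to 1.23 in the third.

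Cd1d1, the lipid-presenting member, was a rare transcript and, among the 6 classes, highest in Kupffer cells and cDC1. Kupffer cells had 61.0 CPM in PV replicate 2, against 43.7 and 58.7 CPM in CV sums, from 46, 18 and 17 UMIs. In cDC1 it had 42.2 and 22.8 CPM in PV sums, against 35.4 and 47.5 CPM in CV sums. T cells had 11.9 and 9.98 CPM in PV sums, against 7.84 and 8.41 CPM in CV sums, below every Kupffer and cDC1 sum. B cells had 11.7 and 10.9 CPM in PV sums, against 15.2 and 18.6 CPM in CV sums, on 1 to 4 UMIs a library, and these too lay below every Kupffer and cDC1 sum. Neutrophils and NK/ILC1 cells held at most 1 UMI a library. Cd1d1 was higher in Kupffer cells by 2.25 ± 0.36 (edgeR adjusted p = 1.4e-06) and in cDC1 by 1.80 ± 0.37 (1.2e-04), and these classes did not differ past the test (0.37 ± 0.35, 0.40). Above B cells, next in the order, cDC1 stood by 1.38 ± 0.50 (edgeR adjusted p = 0.025).

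The Cd1d1 UMIs were spread over cells, with at most 5 in 1 cell. Of Kupffer cells, 31 of 102 in PV replicate 2, and 11 of 54 and 8 of 36 in CV, held at least 1. Among cDC1 these were 14 of 32 and 7 of 20 PV cells, against 5 of 12 and 5 of 14 CV cells. For neutrophils they were 0 of 22 and 0 of 12 PV cells, against 1 of 37 and 1 of 15 CV cells, and 0 of 22 cells allows a share of up to 13.6%. Since cDC1 had a median of 18643.5 to 23615 UMIs per cell, Kupffer cells 6220 to 7529 and neutrophils 2531 to 3688.5, shares were also computed with each cell thinned to 1500 UMIs. They were 6.96% ± 2.76 in Kupffer cells (SD, n = 3 libraries), 5.65% ± 2.41 in cDC1 (n = 4), 1.98% ± 0.24 in B cells (n = 4), 1.44% ± 0.37 in T cells (n = 4) and 0.181% ± 0.363 in neutrophils (n = 4), a class set here as the background. Unthinned, they were 24.3% ± 5.33 in Kupffer cells, 39.0% ± 4.34 in cDC1, 5.70% ± 1.10 in B cells, 5.53% ± 1.21 in T cells and 2.34% ± 3.15 in neutrophils.

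The totals of hepatocyte transcripts and endothelial markers given for Kupffer cells, the latter mostly of Cdh5, stand beside their Cd1d1 values as well. In cDC1 the hepatocyte transcripts totalled 11.8 to 62.1 CPM and the endothelial markers 0 to 5.07 CPM. The 12 cells that passed the endothelial gate, 9 of them in PV replicate 2, held 0 Cd1d1 UMIs, and in those 9 cells a count of 0 allows up to 80.8 CPM, above the Kupffer level.

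Other genes of the pathway were described as lists. Of 9 further genes of peptide making and loading, all tested, cDC1 had 6 higher and 0 lower, where 32.0% of all genes were higher, with a median log2 fold change of 1.05 against 0.16 over all genes. They were led by the proteasome activator subunits Psme1 (1.95 ± 0.12, edgeR adjusted p = 4.0e-17) and Psme2 (1.23 ± 0.15, 7.7e-09), the loading chaperone Pdia3 (1.49 ± 0.16, 6.3e-10) and the peptide-trimming enzyme Erap1 (1.25 ± 0.33, 0.0018). Psme1 had 1065 and 1152 CPM in PV cDC1, against 1102 and 1107 CPM in CV cDC1, and at most 903 CPM in the other 5 classes. T cells and NK/ILC1 cells each had 6 higher and 0 lower, where 33.9% and 14.5% of all genes were higher (medians 0.61 and 0.72 against 0.25 and 0.18 over all genes), including the class I transactivator Nlrc5 at 1.90 ± 0.24 in T cells (edgeR adjusted p = 2.5e-08) and 1.99 ± 0.45 in NK/ILC1 cells (9.6e-04).

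In Kupffer cells 4 of the 9 loading genes were higher and 1 lower, where 34.4% and 13.9% of all genes were, with a median of 0.37 against 0.23 over all genes. The higher ones were the endoplasmic reticulum chaperones Canx (2.21 ± 0.19, edgeR adjusted p = 7.6e-13), Pdia3 (1.63 ± 0.17, 2.1e-10) and Calr (1.52 ± 0.20, 1.5e-08), which also fold proteins other than class I, and the immunoproteasome subunit Psmb10 (0.99 ± 0.19, 3.1e-05). Nlrc5 was lower (-1.20 ± 0.44, edgeR adjusted p = 0.021). B cells had 0 higher and 4 lower, where 9.70% of all genes were lower (median -0.79 against 0.15), among them Psme2 (-1.38 ± 0.23, edgeR adjusted p = 4.9e-06), and neutrophils 0 higher and 7 lower, where 33.9% of all genes were lower (median -2.58 against -0.79), among them Psme1 (-2.65 ± 0.22, 4.8e-13). The tapasin-related gene Tapbpl, 1 of the 7, had 0 UMIs in all neutrophil sums.

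The other class I heavy chains, 6 of 11 tested, divided between the classes. Neutrophils had 1 higher and 5 lower, where 20.3% and 33.9% of all genes were (median -1.98 against -0.79 over all genes). The higher one was H2-Q10, a heavy chain known as a secreted product of liver, at 516 and 233 CPM in PV neutrophils, against 491 and 386 CPM in CV neutrophils (3.92 ± 0.26, edgeR adjusted p = 5.4e-16). The other 5 classes had at most 151 CPM of it, and Kupffer cells, with the most hepatocyte transcripts, had 17.2 CPM in PV replicate 2, against 12.1 and 6.91 CPM in CV sums. Where the H2-Q10 UMIs of neutrophil sums came from was not tested. H2-Q7 was higher in T cells (2.65 ± 0.15, edgeR adjusted p = 3.5e-18) and NK/ILC1 cells (3.00 ± 0.18, 2.3e-16), and lower in Kupffer cells (-2.42 ± 0.26, 2.3e-10) and neutrophils (-3.25 ± 0.36, 6.3e-10). T cells had 3 of these chains higher and 0 lower (33.9% of all genes higher, median 0.79 against 0.25). NK/ILC1 cells had 2 higher and 0 lower (14.5% of all genes higher, median 0.80 against 0.18). B cells had 2 higher and 0 lower, a share near the 23.7% of all genes (median 0.17 against 0.15). In cDC1, 2 were higher and 1 lower, where 32.0% and 14.4% of all genes were (median -0.08 against 0.16), and in Kupffer cells 1 and 3, where 34.4% and 13.9% were (-1.15 against 0.23). The higher one in Kupffer cells was H2-M3, which presents formylated peptides (0.98 ± 0.29, edgeR adjusted p = 0.0042), and it was also higher in B cells (1.36 ± 0.31, 4.7e-04) and cDC1 (0.89 ± 0.29, 0.0095). H2-Q6 shares 10.9% of its 90-base words with other genes, the heavy chain H2-Q4 among them, so part of its UMIs are uncertain too.

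Of the lysosomal and transfer proteins that help load lipids on CD1d, 4 of 5 were tested. Kupffer cells and cDC1, the highest of the 6 classes in Cd1d1, each had 3 higher and 0 lower, where 34.4% and 32.0% of all genes were higher (medians 1.53 and 2.46 against 0.23 and 0.16 over all genes). Psap, which encodes the saposins, had 2.84 ± 0.13 in Kupffer cells (edgeR adjusted p = 6.2e-21) and 3.42 ± 0.12 in cDC1 (7.7e-25). Gm2a, the GM2 activator, had 1.02 ± 0.20 in Kupffer cells (edgeR adjusted p = 4.1e-05) and 4.35 ± 0.14 in cDC1 (1.2e-25). T cells had 0 higher and 2 lower (11.5% of all genes lower, median -1.25), NK/ILC1 cells 0 and 3 (4.38%, -1.43), B cells 0 and 2 (9.70%, -0.48) and neutrophils 1 and 2 (33.9%, -0.73). These genes also serve general lysosomal work. Of 3 constitutive proteasome subunits, cDC1 had 3 higher (32.0% of all genes), led by Psmb5 (0.88 ± 0.17, edgeR adjusted p = 5.9e-05), neutrophils 2 lower (33.9% of all genes), and the other 4 classes at most 1 called.

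The genes most like Cd1d1, B2m and Psmb8 over the 22 class-by-library sums were ranked by Pearson's r of log2(CPM + 1), among genes with a mean of at least 50 CPM. For Cd1d1 they were Cd81 (r = 0.88), Id3 (0.85), Mrpl17 (0.82), Plac8 (0.82) and Ywhae (0.81). Each neutrophil and NK/ILC1 sum held 0 or 1 Cd1d1 UMI, so these r values rest in part on very low counts. For B2m they were Dok2 (r = 0.91), Pik3r1 (0.90), Tmem176a (0.88), Gbp8 (0.88) and Tmem176b (0.87), and of the other members H2-K1 came nearest (0.80, rank 14 of 2755). For Psmb8 they were Tmem258 (r = 0.91), Btf3 (0.90), Itgb7 (0.90), H2afy (0.89) and Ccr2 (0.89), and Tap1 came nearest of the members (0.75, rank 172). Plac8 and Ccr2 are markers of the monocyte gate. The sums share libraries and classes, so these values are a description.

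The second comparison asked whether the genes differ between the zones within a class. PV was set over CV in cDC1, neutrophils, B cells and T cells, the 4 classes whose sums all reached 10 cells. With edgeR, 0 of 10 members tested were called in cDC1, 0 of 5 in neutrophils, 0 of 7 in B cells and 0 of 10 in T cells, and 0% of all genes were called in each class. Of 3678, 846, 2086 and 7528 genes tested in these classes, 204, 25, 56 and 218 had an unadjusted p under 0.05, and DESeq2 called 0 members and 1 gene in all, in T cells. An exact two-sided permutation test of 2 against 2 libraries cannot give a p below 0.333. In T cells, the class with the most cells, the members ran from -0.15 ± 0.19 for Tapbp to 0.39 ± 0.51 for Cd1d1, with H2-K1 at -0.03 ± 0.12 and H2-D1 at 0.01 ± 0.12. In B cells they ran from -0.16 ± 0.18 for H2-K1 to 0.19 ± 0.34 for Tapbp, and in neutrophils from -0.29 ± 0.38 for B2m to 0.34 ± 0.63 for Psmb9.

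In cDC1, 3 members had an unadjusted p under 0.05, and all were heavy chains with a positive value. H2-K1 had 1373 and 1022 CPM in PV sums, against 819 and 983 CPM in CV sums (0.46 ± 0.18). H2-D1 had 2034 and 1563 CPM in PV sums, against 1346 and 1363 CPM in CV sums (0.45 ± 0.15). H2-Q4 had 99.5 and 68.5 CPM in PV sums, against 35.4 and 51.2 CPM in CV sums, from 66 and 27 UMIs in PV and 9 and 14 in CV (1.01 ± 0.37). The edgeR adjusted p was 0.85 for each. Without PV replicate 2, H2-K1 had 0.68 (edgeR adjusted p = 0.047) and H2-D1 0.66 (0.011), where the lone PV library is assumed to vary like the CV ones. Without PV replicate 1 they had 0.22 and 0.24 (edgeR adjusted p = 0.9993 for both), and H2-Q4 had 0.69.

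The light chain B2m was not called between the zones in cDC1 either. It had 1869 and 1426 CPM in PV sums, against 1724 and 1864 CPM in CV sums (-0.08 ± 0.14, edgeR adjusted p = 1). Its ratio to the summed H2-K1 and H2-D1 UMIs in cDC1 was 0.548 and 0.552 in PV and 0.796 and 0.794 in CV. In T cells the same ratio was 0.518 and 0.572 in PV and 0.589 and 0.588 in CV. The ratio was chosen after the values were seen and was not tested between zones. Cd1d1 in cDC1 had -0.24 ± 0.44 and Psmb8 0.03 ± 0.16.

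The difference of zone effects between classes was tested as an interaction. Of 53 tests of a member in a pair of classes, 0 passed, with a lowest edgeR adjusted p of 1, where the share of all genes called was 0.0309% for cDC1 minus neutrophils, 0.0513% for cDC1 minus B cells, 0.0129% for cDC1 minus T cells, 0.0493% for neutrophils minus B cells, 0.0153% for neutrophils minus T cells and 0.0441% for B cells minus T cells. An unadjusted p under 0.05 was found in 4 of the 53, namely cDC1 minus T cells for H2-Q4 (1.05 ± 0.40), H2-K1 (0.46 ± 0.18) and H2-D1 (0.41 ± 0.17), and cDC1 minus B cells for H2-K1 (0.60 ± 0.25). All 4 use the cDC1 sums of the zone comparison, so they are not separate evidence. The share of all genes at this unadjusted threshold was not counted. Kupffer cells were not compared between zones, because PV replicate 1 held 4 of them.

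**Figure D4:**
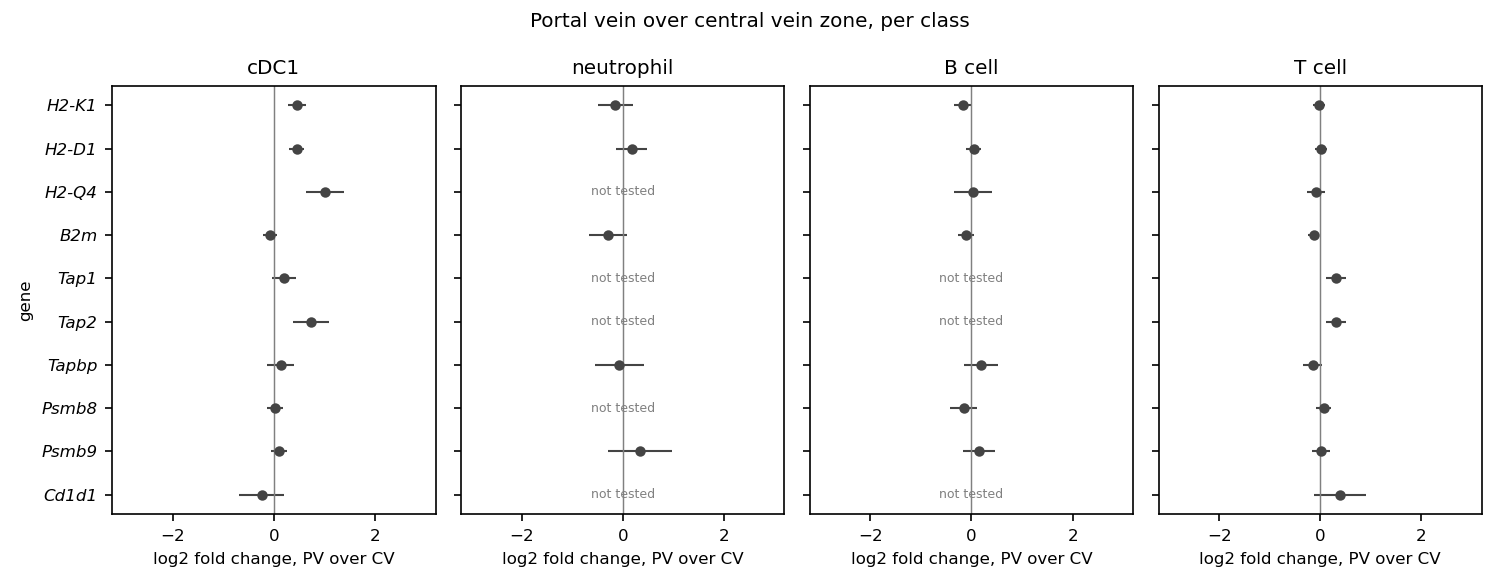
Log2 fold change of PV over CV (x axis; bars are 1 standard error) of each gene in the 4 classes tested, from 2 libraries per zone; genes with too few counts are marked as not tested. In T cells H2-K1 and H2-D1 lie at -0.03 and 0.01, and in cDC1 H2-K1, H2-D1 and H2-Q4 lie at 0.46, 0.45 and 1.01, none past the test.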

How the data were processed

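The authors deposited raw UMI counts, as a gene-by-barcode matrix for each of the libraries, in which every barcode has at least 500 UMIs. Per the labels' protocols the chemistry was 10x Chromium 3′ v3.1, and the submitters' processing notes name Cell Ranger 4.0.0 and mm10. Not given in the sources used here are the annotation, the strand setting and the cell calling.

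Barcodes with at least 200 genes and at most 10% mitochondrial UMIs were kept, and a shared barcode only where it held at least 70% of its UMIs. Symbols were matched for 32158 of 32285 genes. Of the 14 marker panels, a cell took the class with at least 3 markers and strictly the most; cells with 3 markers in panels of different lineages were set aside. Scrublet (scanpy 1.11.5, expected rate 3%) marked 2 and 7 PV cells, against 1 and 2 CV cells; they were left in, and leaving them out was an alternative. UMIs were summed per class and library and tested with edgeR 4.0.16 (R 4.3.3; filterByExpr, TMM, quasi-likelihood, Benjamini-Hochberg over all genes tested), after the script was tested on simulated data. DESeq2 1.42.0 was an alternative. Thinned shares are the mean over all possible draws of 1500 UMIs per cell. Intervals are 95% and, like floors of 3 counts, cover counting error only. Library totals were 3063778 and 4373488 UMIs for PV, against 2741760 and 2916638 for CV.

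All 10 members are named throughout, and in other lists the called genes with the smallest p, up to 4 per list and contrast; for likeness, the 5 highest r. A gene of the lipid loading list is not reported here and is left out of its counts. The gene given at 0 UMIs, the chains shown for single classes and the ratios to H2-D1 and of B2m were chosen after their values were seen. Members and lists were chosen with earlier results of these data known. The labels do not say whether replicate numbers pair samples, and the main zone fits have no such block. Alternatives were other scalings, tools, filters, gates, cell limits, blocks, left-out libraries and thinning depths; setting the monocyte panel aside and leaving out neutrophils were added after seeing the data.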

Additional observations from a re-analysis of the deposited data

How the results depend on the processing

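Over all alternatives run, the value of a member in a class against the others kept its direction and side of the threshold in 902 cases, lost its call in 55, gained one in 45 and changed sign in 1, H2-K1 in B cells with a gate of 2 markers (0.082, edgeR adjusted p = 0.85). In the zone comparison 506 kept theirs and 3 gained a call: H2-K1 and H2-D1 in cDC1 without PV replicate 2, and H2-D1 with no low-count filter (0.52, edgeR adjusted p = 0.025). The 5 Kupffer calls held in every alternative that tested the gene (15 for Cd1d1, 18 for each of the other four), as did Psmb8, Psmb9, Tap1, Tap2 and Cd1d1 in cDC1. The cause of each change was not tested.

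Of the 10 members, cDC1 had 5 called with shared barcodes kept (2701 of 5219 genes in all) and 5 with a gate of 4 markers (2767 of 5663). B cells had 2 with a gate of 2 markers (1252 of 4591), 3 with no library block (1885 of 5525), and 3 to 4 on leaving out a library, 3 of them without CV replicate 1 (1537 of 5912). NK/ILC1 cells had 3 with no low-count filter (995 of 17016). Between zones, cDC1 had 1 called with no low-count filter (45 of 12435 genes in all, against 0 of 3678 with it) and 0 to 2 on leaving out a library. Over all genes, leaving out a library gave 17 to 54 zone calls in cDC1, 0 to 28 in neutrophils, 2 to 15 in B cells and 11 to 69 in T cells. Scaling by library totals also moved the median of all genes by 0.15 in Kupffer and -0.15 in B cells, and relative log expression size factors by 0.11 in neutrophils and -0.11 in T cells.

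Thinned to 3000 UMIs, Cd1d1 was in 12.9% of Kupffer cells, 10.8% of cDC1, 3.37% of B cells and 2.75% of T cells, and with no thinning in 24.3%, 39.0%, 5.70% and 5.53%; with a gate of 2 markers and 1500 UMIs it was in 1.56% of B cells. The Kupffer immunoproteasome ratio was 1.71 with shared barcodes kept. Fitting the replicate number as a block called 0 members and, over all genes, 1 in cDC1, 0 in neutrophils, 0 in B cells and 52 in T cells. Over genes, the log2 CPM difference of replicate 1 minus replicate 2 in PV was correlated with the same difference in CV. The r was 0.077 in cDC1, 0.145 in neutrophils, -0.098 in B cells and 0.165 in T cells, with 2 pairs. Whether the numbers pair the samples is unknown: neither the labels nor 2 pairs settle it. For the class and interaction fits the library was already the block.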

Other observations

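Classes too small for a test are given as values, with 95% Poisson intervals that cover counting error only. The 4 mature dendritic cells of PV replicate 2 and the 2 of CV replicate 1, gated by markers such as Ccr7 and Fscn1, had 262 CPM (157 to 409) and 95.3 CPM (19.6 to 278) of Cd1d1, from 19 and 3 UMIs. They had 6292 CPM (5728 to 6896) and 7081 CPM (6182 to 8074) of B2m, 1583 CPM (1307 to 1901) and 1207 CPM (854 to 1656) of Psmb8, and 275 CPM (168 to 425) and 286 CPM (131 to 542) of Tap1. In PV replicate 2 their Cd1d1 interval lay above the highest Cd1d1 level of a Kupffer sum, 61.0 CPM. The 5 plasmacytoid dendritic cells of PV replicate 2, with the 3 and 2 of the CV replicates, held 0 Cd1d1 UMIs, which allows up to 63.0 CPM in PV replicate 2.

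Macrophages outside the Kupffer gate reached 10 cells in PV alone. They had 22.5 and 18.9 CPM of Cd1d1, from 3 and 2 UMIs, and 2927 and 4186 CPM of B2m. The cDC2 of PV replicate 2, 18 cells, had 486 CPM of Psmb8, 226 CPM of Psmb9, 101 CPM of Tap1 and 4.19 CPM of Cd1d1, from 1 UMI. Their ratio of immunoproteasome to constitutive UMIs was 4.15, on 41 constitutive UMIs. The 4 Kupffer cells of PV replicate 1 held 76 UMIs of H2-K1, 56 of H2-D1, 99 of B2m and 0 of Cd1d1. Of the 176 cells set aside as mixed, 103 held the markers of both the T cell and the classical monocyte panel.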
